A study of Mus musculus with 30 samples.

Results

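RAD21 regions were compared between NIH3T3 cells carrying an empty vector and NIH3T3 cells expressing BORIS. NIH3T3 is an immortalized mouse embryonic fibroblast line. The empty-vector cells stably carried a control CpG-free plasmid that expresses beta-galactosidase. The BORIS cells stably expressed BORIS from a CpG-free plasmid and came from clone 2, so the BORIS side is 1 clone. The labels give no passage, no BORIS level, and no statement on whether the empty-vector cells were a clone or a pool.

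The series covered 30 mouse samples, with libraries for cohesin, the remodeller Snf2h, nucleosomes, accessible chromatin, H3K9me3 and DNA methylation. Of these, 8 came with the lists of called regions read here. RAD21 accounted for 2 samples, 1 library in each line. All regions of both RAD21 lists on chromosomes 1 to 19 were taken, 82401 from empty-vector cells and 80268 from BORIS cells, which is 162669 of the 610675 regions of the 8 lists. With 1 library in each line no difference could be set against replicate spread, and no p-value between lines was computed. Intervals of shares, count ratios and single pileups are exact (Clopper-Pearson or Poisson) 95% intervals and cover counting error only. Those of medians reflect the spread over regions or pairs within the libraries. Neighbouring regions are not independent.

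RAD21 is the kleisin subunit of the cohesin ring and bridges the heads of SMC1 and SMC3. Cohesin holds sister chromatids together and extrudes chromatin loops, and in mammalian cells it gathers at sites bound by CTCF, which halts extrusion in an orientation-dependent way. BORIS (CTCFL) is a germline paralog of CTCF with a similar zinc-finger domain and different ends, and it can bind many of the same DNA motifs when expressed in somatic cells. A comparison of RAD21 between these lines asks where cohesin is found when BORIS is present.

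Each list gives, for each region, the start, the end and the summit (the base with the most overlapping fragments). It also gives the fold over a local background and a −log10 p. From the fold and the −log10 p, the number of fragments over the summit (the pileup) and the background rate were solved. Over the genome, the background was 0.908 fragments per base in empty-vector cells and 0.914 in BORIS cells. Divided by the narrowest region (117 and 123 bp), this gave 7.76 and 7.43 fragments per kb, a ratio of 0.957 that stands in for the ratio of sequencing depths. The empty-vector list covered 23.5 Mb and the BORIS list 22.2 Mb. The median fold was 7.54 in empty-vector cells and 6.95 in BORIS cells. The lower quartile, median and upper quartile of the pileup were 14, 21 and 48 in empty-vector cells and 13, 19 and 37 in BORIS cells. The lists thus differed little at weak regions and more at strong ones, and the 90th percentile of the pileup was 104 against 76. In neither list did a solved pileup exceed 2 times the narrowest width, 234 and 246 fragments, a value that 12 and 10 summits reached exactly. At 379 empty-vector and 37 BORIS summits the −log10 p was over 300 and no pileup was solved.

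Most RAD21 regions overlapped one of the other line. Of the 82401 empty-vector regions, 62397 (75.7%, 75.4 to 76.0) shared at least 1 bp with a BORIS region. Of the 80268 BORIS regions, 62812 (78.3%, 78.0 to 78.5) shared at least 1 bp with an empty-vector region. When one list was moved by 20 kb these shares were 3.53% and 3.65%. Regions called in empty-vector cells only numbered 20004 (24.3% of that list). Regions called in BORIS cells only numbered 17456 (21.7% of that list), 0.873 times as many (0.855 to 0.891). The ratio largely restates the lengths of the lists, which differ by 2133 regions, while the private classes differ by 2548. The depth stand-in was also lower in BORIS cells, and its part was not tested. With the same number of regions in both lists (80268, by −log10 p) the ratio was 0.971, and it was 0.552 (10800 and 5963 regions) when both lists were limited to a −log10 q of 10 or more.

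Whether a region was called in the other line followed its strength. In the weakest 10% of empty-vector regions by −log10 p, 36.1% (35.1 to 37.2) were called in BORIS cells. In the fifth decile the share was 76.2%, and in the eighth it was 99.5%. In the strongest 10%, all 8240 of 8240 empty-vector regions were called in BORIS cells, where a count of 0 missing allows a share of up to 0.0364% (the 1-sided limit of 3 counts of 8240, while the 2-sided exact interval of the share called is 99.96 to 100%). The same shares of BORIS regions were 48.0% (46.9 to 49.1) in the weakest 10%, 75.8% in the fifth decile and 98.8% in the eighth. A single BORIS region among the 8027 strongest was absent from the empty-vector list.

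**Figure D1:**
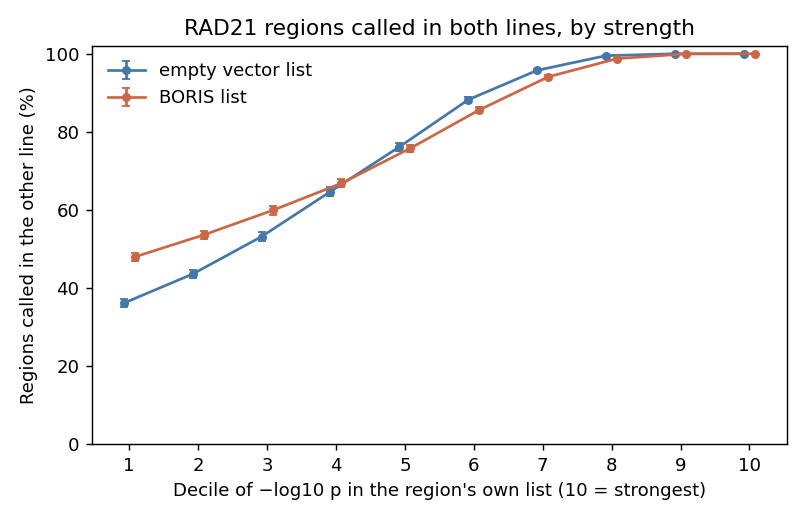
Share of RAD21 regions called in the other line (vertical axis, %) against the decile of −log10 p in the region's own list (horizontal axis, 10 strongest), with empty-vector and BORIS lists in separate colours and exact 95% intervals as bars. The shares rise from 36.1% (empty vector) and 48.0% (BORIS) in the weakest decile to nearly all regions in the strongest.

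Private regions, those called in 1 line only, were narrow and low. Their median width was 153 bp in empty-vector cells and 152 bp in BORIS cells, against 275 and 262 bp for regions called in both lines. Their median pileup was 13 and 12 fragments, against 28 and 23 for regions called in both. The background rate at private summits (medians 1.55 and 1.51) was near that at shared summits (1.77 and 1.86), so the class difference lay in the pileup. A pileup of at least 20 was found at 1889 (9.44%) of the empty-vector-only and 1374 (7.87%) of the BORIS-only regions. The median pileups of the whole lists were 21 and 19. A −log10 q of 10 or more was reached by 2722 (13.6%) and 2249 (12.9%), against 57.3% and 52.8% of the whole lists.

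The strongest private regions had fragments well over background in 1 line while no region was called within 1 kb in the other. In empty-vector cells only, chr14:25465513-25465777 had a pileup of 66 (51.0 to 84.0) and a fold of 30.7. A second, chr8:10613422-10613702, had a pileup of 63 and a fold of 19.2. The third, chr7:152351053-152351369, had a pileup of 56 and a fold of 22.3. In BORIS cells only, chr11:119934488-119934928 had a pileup of 80 (63.4 to 99.6) and a fold of 25.1, and it was the 1 private region among the strongest 10% of either list. The next were chr15:100582319-100582578 with a pileup of 47 and chr9:104916324-104916553 with a pileup of 38. Coordinates here and below are those of the lists, counted from 1, and the submitters' processing notes name mm9 for the series. No gene annotation of that build was used, so regions are placed by coordinate and not by gene.

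SMC1 and SMC3, the other arms of the cohesin ring, were mapped in separate libraries of the same lines, and these did not choose the RAD21 classes. At the chromosome 11 region the SMC1 pileup was 95 in BORIS cells and 16 in empty-vector cells, and the SMC3 pileup was 128 and 20. RAD21 was thus called in 1 line at this place while both SMC subunits were called in both lines at unequal height. At the chromosome 14 region the SMC1 pileup was 30 in empty-vector cells with no SMC1 region in BORIS cells, and the SMC3 pileup was 30 and 15. At the chromosome 7 region SMC1 reached 41 in empty-vector cells and was not called in BORIS cells, and SMC3 reached 62 against 10. Each of these 3 regions was thus higher for SMC1 and SMC3 in the line in which RAD21 was called.

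Over all empty-vector-only RAD21 regions, 69.1% (68.4 to 69.7) were called with SMC1 in empty-vector cells and 43.6% (42.9 to 44.3) with SMC1 in BORIS cells. For SMC3 the shares were 66.6% in empty-vector cells and 47.9% in BORIS cells. Of the BORIS-only RAD21 regions, 69.0% (68.3 to 69.7) were called with SMC1 in BORIS cells and 41.2% (40.5 to 42.0) with SMC1 in empty-vector cells. For SMC3 these shares were 74.8% and 41.8%. Both classes were therefore called more often with the other subunits in their own line, yet over 2 in 5 were called with a given subunit in the line that lacked the RAD21 call. For RAD21 regions called in both lines, all 8 shares were over 91%. Moving the regions by 20 kb left at most 5.42% for the private and shared classes.

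Taken region by region, 12074 empty-vector-only regions (60.4%) had SMC1 or SMC3 called in BORIS cells, and 9743 BORIS-only regions (55.8%) had one of them called in empty-vector cells. Regions with both subunits in their own line and neither in the other numbered 2616 (13.1%) for empty vector and 3748 (21.5%) for BORIS. This stricter count ran opposite to the RAD21 lists, in which private empty-vector regions were the more numerous. The SMC3 list was the longer one in BORIS cells (105041 against 98604 regions) and the SMC1 list the shorter one (100107 against 104020), and the part of list length in that count was not tested. Neither subunit was called in the own line at 3972 (19.9%) of the empty-vector-only and 2832 (16.2%) of the BORIS-only regions, and their median RAD21 pileups were 11 and 10. The joint counts were made for private regions only, so no share over all regions can be set beside them.

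Private regions lay among the other regions of the list. The median distance from a private region to the nearest region of the other line was 4768.5 bp for empty vector and 4394.5 bp for BORIS. It was under 1 kb for 25.4% and 24.3%. The nearest region called in both lines was 6165.5 and 5762.5 bp away at the median. For regions called in both lines, the nearest other such region was 5630 and 5499.5 bp away. Private regions were thus about as close to a shared region as shared regions were to each other.

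Over all chromosomes together, spacing between neighbouring summits had a median of 10297 bp in empty-vector cells (quartiles 2893 and 27571) and 10220 bp in BORIS cells (2920 and 27682). The intervals of these medians were 10134 to 10440 and 10071 to 10373. They are over distances within 1 library a line, so their overlap does not test the lines. Single chromosomes differed in opposite directions. The median was 14005 bp in empty-vector and 20508 bp in BORIS cells on chromosome 14, 9451 and 12376.5 bp on chromosome 8, and 10067 and 7789.5 bp on chromosome 4. Neighbours under 1 kb apart, edge to edge, made up 15.7% of empty-vector and 14.9% of BORIS neighbours. The smallest gap was 38 bp in both lists. Joining neighbours under 1 kb apart gave 69451 runs in empty-vector cells and 68280 in BORIS cells, of which 86.5% and 86.9% were single regions. The longest run lay on chromosome 19 in both lines. It held 19 regions at chr19:5839683-5850600 in empty-vector cells and 20 regions at chr19:5833924-5846750 in BORIS cells.

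The longest stretch with no summit was the same in both lines. On chromosome 7 it ran from 39204850 to 46584020 in empty-vector cells and from 39204853 to 46584012 in BORIS cells, a distance of 7.38 Mb. Whether reads can be placed in this stretch was not tested, so it is not read as free of RAD21. Distances over 1 Mb numbered 117 and 118.

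Region width differed little at the median, 232 bp in empty-vector cells (231 to 234) and 228 bp in BORIS cells (227 to 229). Width rose with pileup in both lists. In the lowest decile of pileups the median width was 133 bp in empty-vector cells and 137 bp in BORIS cells, and in the highest decile it was 468 and 462 bp. The narrowest possible region, 117 or 123 bp, was reported 4206 times in empty-vector cells (5.10%) and 4557 times in BORIS cells (5.68%). Regions of at least 500 bp numbered 8004 in empty-vector cells (9.71%, holding 23.5% of covered bases) and 6635 in BORIS cells (8.27%, holding 20.3%). Regions of at least 1000 bp numbered 690 and 495. The BORIS list was thus shorter at the wide end by more than its overall length.

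**Figure D2:**
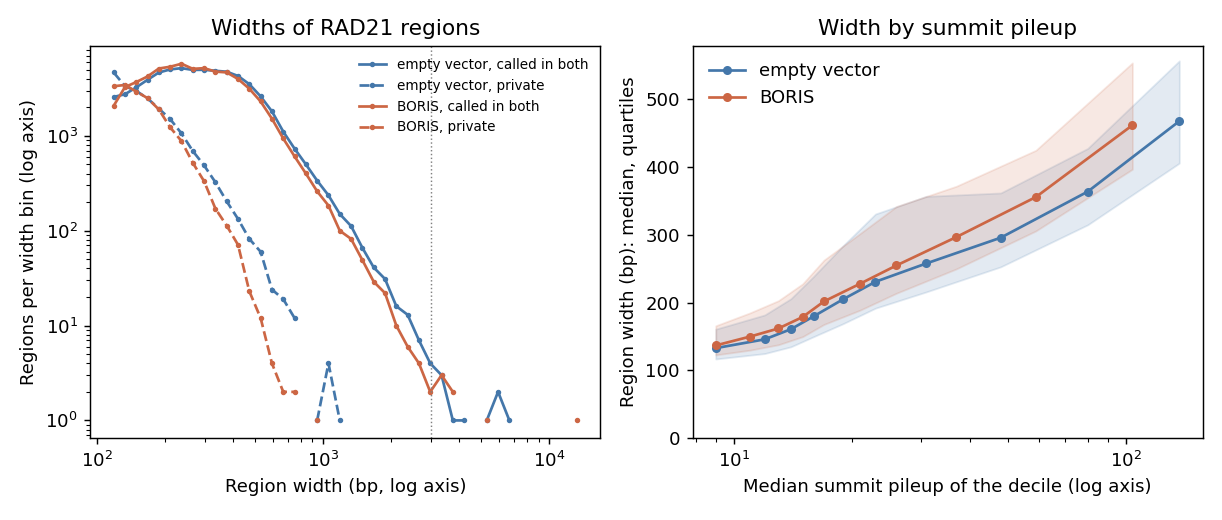
Left, number of regions per width bin (both axes logarithmic, width in bp) for private regions and regions called in both lines, with the very wide limit of 3 kb dotted. Right, median width (bp) with quartile band against median summit pileup (logarithmic axis) in deciles of each list, where both lines rise from 133 and 137 bp to 468 and 462 bp.

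Very wide regions, of at least 3 kb, numbered 13 in empty-vector cells and 8 in BORIS cells, and each of them was called in the other line. They held 0.228% and 0.177% of covered bases. They were of 2 kinds. At 6 of the 13 and 5 of the 8 the background rate was over 50 fragments, with pileups of 225 to 246 and folds of only 2.53 to 2.77. At the other 7 and 3 the background rate was at most 5.57 and the folds ran from 10.7 to 47.0.

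The 3 widest regions of each list were of the first kind and lay at the start of chromosome 9 and on chromosome 17. In empty-vector cells the 3 widest were chr9:3020422-3026966 (6545 bp), chr9:3013658-3019509 (5852 bp) and chr17:39979975-39985738 (5764 bp). In BORIS cells they were chr9:3013646-3027317 (13672 bp), chr9:3033071-3038306 (5236 bp) and chr17:39979988-39983931 (3944 bp). The widest BORIS region covered 4 empty-vector regions, whose widths summed to 13520 bp and whose gaps were at most 54 bp. Between 3000008 and 3038304 of chromosome 9, 16 regions were called in empty-vector cells and 11 in BORIS cells, covering 36553 and 37059 bp. The covered length at this place was thus nearly equal, and the number and the greatest width of regions differed through joins across short gaps. The chromosome 17 region went the other way, being 1 region of 5764 bp in empty-vector cells and 3 regions summing to 5570 bp in BORIS cells.

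Among very wide regions with a low background, several in empty-vector cells were met by several narrower ones in BORIS cells. The region chr4:94716459-94720855 (4397 bp, pileup 183) was met by 4 BORIS regions, the widest of 1555 bp, with pileups of 37 to 169. The region chr10:36855810-36858897 (3088 bp, pileup 192) was met by 5 BORIS regions with pileups of 18 to 123. At chr14:26276685-26279773 (3089 bp, pileup 138) there were 4 BORIS regions, and at chr15:67006153-67009269 (3117 bp, pileup 159) there were 3. Others were wide in both lines, such as chr18:39648427-39651642 (3216 bp, against 3245 bp in BORIS cells) and chr10:17441254-17444602 (3349 against 3215 bp). At the latter the pileup was 89 in both lines. The region chr3:61166848-61169903 (3056 bp, pileup 47) was 1 region in BORIS cells and 2 in empty-vector cells.

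Splitting of this kind was not common among all shared places. Overlaps joined the lists into 61013 shared places, of which 58352 (95.6%) held 1 region of each list. In 1357 places 1 empty-vector region met several BORIS regions (2824 in all), and in 1018 places several empty-vector regions (2087) met 1 BORIS region. The single empty-vector regions had a median width of 675 bp and their BORIS parts 238 bp. The single BORIS regions had a median width of 568 bp and their empty-vector parts 227 bp.

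At the 58352 places with 1 region of each list, the summits lay close together. The median distance was 15 bp (quartiles 7 and 32), and 85.9% of the pairs had summits within 50 bp. The same base was the summit in 1347 pairs (2.31%). The BORIS summit lay to the right of the empty-vector summit in 48.9% and to the left in 48.8%, with a median signed distance of 0 bp, so no common shift was seen along the chromosome. Distances shrank with pileup, from a median of 30 bp in the lowest decile of mean pileups to 7 bp in the highest.

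**Figure D3:**
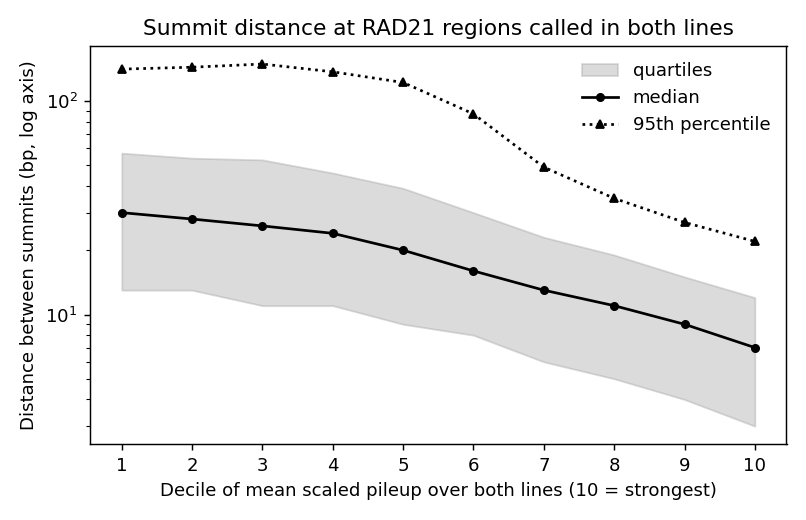
Distance in bp (logarithmic axis) between empty-vector and BORIS summits of RAD21 pairs, by decile of the mean pileup over both lines (10 highest), as median, quartile band and 95th percentile. The median falls from 30 bp in the lowest decile to 7 bp in the highest.

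Summits over 200 bp apart were found in 744 pairs (1.28%), with a greatest distance of 1271 bp. These pairs were wider than the rest, with median widths of 466 bp in empty-vector and 405.5 bp in BORIS cells against 270 and 259 bp. They were also weaker, with median pileups of 19 and 17 against 29 and 24. Of pairs with at least 1 region of 1000 bp or more, 12.2% had summits over 200 bp apart, and of pairs with both regions under 200 bp, 0.0475% did. A narrow region leaves little room for distant summits, so the share by width is bounded by the width itself.

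Pileup at the pairs was compared after division by each list's genome-wide background rate, which changed the ratio by a factor of 1.01 only. Of the 58352 pairs, 57991 were solved in both lists, with median pileups of 29 fragments in empty-vector and 24 in BORIS cells. The median log2 ratio of BORIS to empty vector was −0.32 (−0.33 to −0.31, quartiles −0.63 and −0.01), and it was 0.07 when the lists were centred on the strongest 10% of pairs, a shift of 0.39. Before scaling, 71.6% of pairs had fewer fragments in BORIS cells, 4.48% had equal numbers and 23.9% had more. On the background scale equal numbers count as lower, which gives 76.1% of pairs lower in BORIS cells, a direction of the median that turns under that centring. Which of these scales fits the libraries was not tested.

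On the background scale the difference broadly grew with strength up to the ninth decile and was smaller in the highest. In the lowest decile of mean pileups the median log2 ratio was −0.01, in the fifth decile −0.26, in the eighth −0.51, in the ninth −0.51 and in the highest −0.39. Centred on the highest decile, these values were 0.38, 0.13, −0.12, −0.13 and 0. Weak pairs passed the calling threshold in both lists, which bounds how far their ratio can fall. The 361 pairs left out as unsolved had a −log10 p over 300 in empty-vector cells only (325), in both lists (33) or in BORIS cells only (3), so strong empty-vector pairs are missing from these values. If the observed maximum of 2 times the narrowest width is taken as a ceiling, which no source states, a correction for it, chosen after the values were seen, gave medians of −0.66 in the ninth decile and −0.65 in the highest.

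A pileup at least 2 times higher in BORIS cells was found at 557 pairs (0.96% of 57991), and one at least 2 times lower at 4517 (7.79%). Centred on the strongest 10% of pairs, the counts were 2415 higher and 957 lower, so the larger class turned as well. Among the 32045 pairs with a pileup of at least 20 in both lists, 66 were at least 2 times higher and 2144 at least 2 times lower, and the centred counts were 399 and 307. The SD of the log2 ratio was 0.51 in the second decile of mean pileups, where counting alone gives 0.55, and 0.24 in the highest decile, where counting gives 0.18. The excess over counting was largest in the middle, with 0.57 against 0.38 in the sixth decile and 0.51 against 0.33 in the seventh. The spread at weak pairs is narrowed by the requirement of a call in both lists, and with 1 library a line the spread between libraries of 1 line is unknown.

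Width moved with pileup at these pairs. Those at least 2 times lower in BORIS cells had a median width of 289 bp in empty-vector and 221 bp in BORIS cells, and 86.3% of them were narrower in BORIS cells. Those at least 2 times higher had median widths of 152 and 254 bp, and 95.9% were wider in BORIS cells. Over all pairs, 53.7% were narrower in BORIS cells and 45.7% wider.

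**Figure D4:**
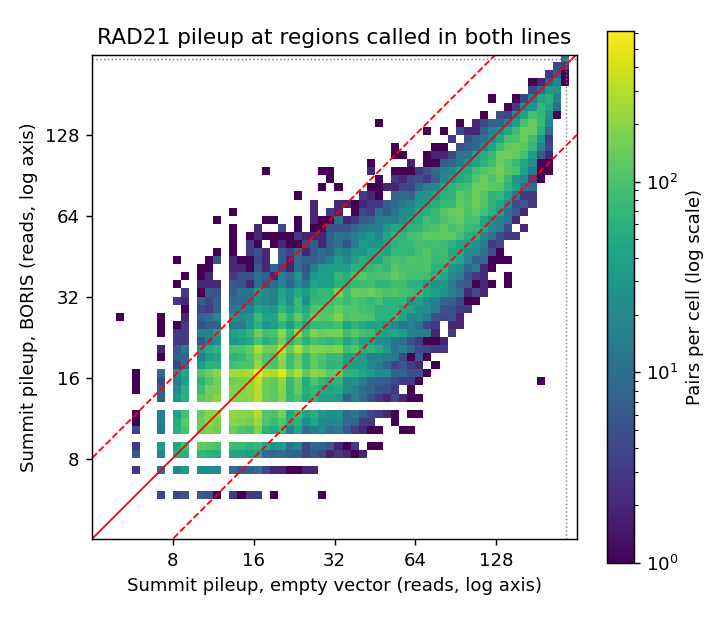
Number of RAD21 pairs (colour, logarithmic) by summit pileup in empty-vector cells (horizontal axis, fragments) and in BORIS cells (vertical axis), both logarithmic, with lines for equal pileup and for a factor of 2. Most pairs lie below the line of equal pileup (median log2 ratio −0.32 on the background scale, 0.07 when centred on the strongest 10% of pairs), and whole pileups leave empty bands at low values.

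The pairs with the greatest ratios had summits at nearly the same base. Among pairs with a pileup of at least 20 in both lists, the highest ratio was at chr11:65081787-65082228, with 28 fragments in empty-vector cells (18.6 to 40.5) and 95 in BORIS cells (76.9 to 116). Its log2 ratio was 1.75 and its summits were 12 bp apart. The next were chr4:139962251-139962590 with 23 and 75 fragments and chr17:10937916-10938451 with 46 and 146. For all 3 the background rates of the 2 lists differed by less than 1%. They were chosen for their ratios, so the gap between their pileups is a description. In the libraries of the other subunits, SMC1 at the chromosome 17 pair was 43 in empty-vector and 93 in BORIS cells, and SMC3 was 44 and 114.

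The lowest ratio was at chr14:31678492-31678839, with 84 fragments in empty-vector cells (67.0 to 104) and 20 in BORIS cells (12.2 to 30.9), a log2 ratio of −2.08. The next were chr5:23396623-23396898 with 82 and 20 fragments and chr18:79306364-79307325 with 144 and 36. At the chromosome 18 pair the width was 962 bp in empty-vector and 316 bp in BORIS cells, and SMC1 was 105 and 30 while SMC3 was 131 and 36. All 6 of these ratios keep their direction under the centring, whose shift of 0.39 is smaller than each of them.

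Over all solved pairs, with no minimum pileup, 1 pair had the lowest ratio and was singled out after its values were seen. At chr12:120093520-120094025 the RAD21 pileup was 192 in empty-vector cells and 15 in BORIS cells, a log2 ratio of −3.69. The fold was 43.0 against 3.40, the background rates were 3.49 and 3.71, and the summits were 38 bp apart. The region was 506 bp wide in empty-vector cells and 158 bp in BORIS cells. SMC1 was 139 and 19 at this place, and SMC3 was 152 and 14. In all 3 antibodies, then, this region was high in empty-vector cells and low in BORIS cells. The highest ratio of all pairs was at chr6:91369619-91369919, with 5 and 27 fragments, where SMC1 (33) and SMC3 (51) were called in BORIS cells only.

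The highest pileup solved in empty-vector cells, 234 fragments, was shared by several pairs. In 7 pairs it met the BORIS maximum of 246, 3 of them on chromosome 2, 3 on chromosome 9 and 1 on chromosome 12. Those on chromosome 2, named as the first in genome order, were chr2:98502374-98503151, chr2:98505107-98505416 and chr2:98506377-98507505. Their background rates were 79.9 to 91.3, so their folds were only 2.56 to 3.01. As both pileups are the maximum of their list, no difference between the lines is read from these pairs.

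The other subunits moved with RAD21 at the pairs. SMC1 was called over both summits and solved at 49690 pairs (85.7%), with a median log2 ratio of −0.40, and SMC3 at 51438 pairs (88.7%), with −0.26. At the RAD21 pairs at least 2 times lower in BORIS cells, the SMC1 median was −0.91 and the SMC3 median −0.79, with 96.56% and 94.98% of pairs below 0, against 78.2% and 70.3% over all pairs. At those at least 2 times higher, the medians were 0.88 and 0.96. The ratios of the other subunits are on the background scale of their own lists, and centring was not applied to them. In the highest decile of RAD21 mean pileups the SMC1 and SMC3 medians were −0.47 and −0.29. These lie further below 0 than the medians over all pairs, so the side of 0 over all pairs depends on the scale. All 6 libraries come from the same 2 lines, so they do not replicate the lines.

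RAD21 differed between the lines unevenly over the chromosomes. On the background scale the median log2 ratio was below 0 on all 19 chromosomes, and when centred on the strongest 10% of pairs it was below 0 on 4 (7, 8, 12 and 14) and above 0 on 15. The lowest median was −0.68 on chromosome 14 (1826 pairs), followed by −0.56 on chromosome 8, −0.49 on chromosome 12 and −0.46 on chromosome 7. The highest was −0.12 on chromosome 4 (4027 pairs), followed by −0.20 on chromosome 5 and −0.25 on chromosome 11. The order of chromosomes does not depend on the scale, which adds 1 constant to all of them.

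The balance of private regions differed in the same way. On chromosome 14 there were 1219 empty-vector-only and 246 BORIS-only regions, a ratio of 0.202 (0.175 to 0.232). These were 39.0% of the 3123 empty-vector regions and 11.2% of the 2200 BORIS regions there, against 24.3% and 21.7% over all chromosomes. On chromosome 8 there were 1485 and 504, a ratio of 0.339. On chromosome 4 there were 863 and 2021, a ratio of 2.34 (2.16 to 2.54). These were 16.5% of 5217 empty-vector and 31.8% of 6359 BORIS regions. On chromosome 5 there were 1009 and 1478, a ratio of 1.46. Since most shared places hold 1 region of each list, the balance of private regions follows the difference in list length. On chromosome 14 the empty-vector list was longer by 923 regions and had 973 more private regions. BORIS-only regions were the more numerous on 6 chromosomes (4, 5, 10, 11, 15 and 19) and empty-vector-only regions on 13. On chromosomes 1, 2, 10, 15, 16, 17 and 19 the counting interval of the ratio included 1. Neighbouring regions are not independent and the overall ratio was 0.873, so this does not sort the chromosomes into differing and equal ones.

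**Figure D5:**
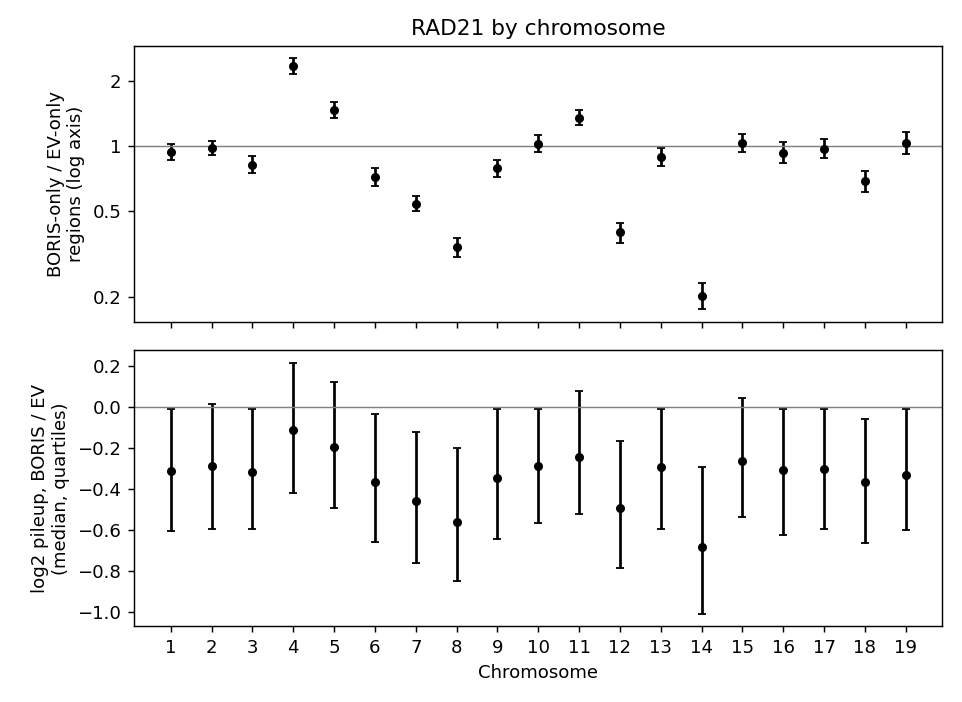
Top, ratio of BORIS-only to empty-vector-only RAD21 regions by chromosome (logarithmic axis, exact 95% intervals). Bottom, median log2 ratio of pileup, BORIS over empty vector, on the background scale with quartiles; adding 0.39 centres it on the strongest 10% of pairs, which leaves 4 chromosomes below 0. Chromosome 14 is lowest (ratio 0.202, median −0.68) and chromosome 4 highest (2.34, −0.12) in both.

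Pairs past a factor of 2, counted on the background scale unless stated, were spread likewise. The chromosomes named below have the lowest or highest medians of this same ratio, so an excess of such pairs there restates the medians. Chromosomes 7, 8, 12 and 14 held 36.8% of the pairs at least 2 times lower in BORIS cells and 17.9% of all pairs. On chromosome 14 alone, 479 of 1826 pairs (26.2%) were at least 2 times lower, against 7.79% over all chromosomes. Chromosomes 4 and 5 held 27.6% of the pairs at least 2 times higher and 14.02% of all pairs. When centred on the strongest 10% of pairs, chromosomes 7, 8, 12 and 14 held 44.1% of the 957 lower pairs, and chromosomes 4 and 5 held 22.5% of the 2415 higher pairs. On chromosome 14, 146 of 1826 pairs were then lower, against 1.65% of pairs over all chromosomes. Leaving out 1 chromosome at a time moved the overall private ratio between 0.806 and 0.916 and the median log2 ratio between −0.33 and −0.31.

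Along the chromosomes, bins of 10 Mb with at least 50 pairs were compared. Of 245 such bins, 244 had a median log2 ratio below 0 on the background scale, and 71 did when centred on the strongest 10% of pairs. Of the 10 lowest bins, 8 lay on chromosome 14, where 11 bins had enough pairs, and of the 10 highest, 8 lay on chromosome 4, where 15 did. The lowest bin was chromosome 14 from 20 to 30 Mb (−0.79, with 220 empty-vector-only and 31 BORIS-only regions). The highest was chromosome 4 from 150 to 160 Mb (0.03, with 42 and 174). On chromosome 14 all 11 bins lay between −0.79 and −0.60. Chromosome 4 was not uniform. Its 7 bins before 70 Mb lay between −0.41 and −0.23, and its 8 bins from 80 to 160 Mb lay between −0.13 and 0.03. Divided at 80 Mb, a position chosen after the bins were seen, the first stretch had a median of −0.31 (1153 pairs), near that of all pairs, with 404 empty-vector-only and 400 BORIS-only regions. The stretch from 80 to 160 Mb had a median of −0.05 (2874 pairs), with 459 and 1621 private regions, a ratio of 3.53. The high values of chromosome 4 thus came from its part beyond 80 Mb.

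The median ratio of the background rates of the 2 lists, scaled to their genome-wide rates, was 1 on every chromosome. The control behind these rates is not given in the sources used here, and a control common to both lists gives this value whatever the lines hold, so nothing about the chromosomes of the lines is read from it. In the SMC1 libraries chromosome 14 was again lowest (−0.80), followed by chromosomes 8 (−0.67), 12 (−0.59) and 7 (−0.55), and chromosome 4 was highest (−0.18). In the SMC3 libraries chromosome 14 was lowest (−0.65) and chromosome 4 highest (−0.05), with chromosomes 8, 12 and 7 next to the lowest. On chromosome 4, SMC1 and SMC3 had medians of −0.40 and −0.26 before 80 Mb and −0.10 and 0.02 beyond it. Differences of the clone from the empty-vector cells other than BORIS itself cannot be told apart from BORIS in this design.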

How the data were processed

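RAD21 ChIP-seq regions were read from lists deposited by the authors, 1 library per line. Per the labels' protocols, cells were fixed with 1% formaldehyde for 10 min, chromatin was sheared to 200 to 600 bp and 5 µg of antibody was used. The submitters' processing notes name Bowtie2, Bowtie, SAMtools, MACS2 and deepTools 3.5.0, with the builds mm9 and hg19 and no role for any of them. Caller settings, the control, duplicate handling and pooling were not given in the sources used here. The deposited lists have 10 columns without a header. The authors deposited a fold, a −log10 p-value and a −log10 q-value per region. The fold was taken as summit pileup over local background, with 1 added to both before division. The p-values and q-values were used only within their list or to solve the pileup. Folds were also set side by side between the lists, and 1 alternative used their ratio in place of the pileup ratio.

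Regions of chromosomes 1 to 19 were overlapped by at least 1 bp. Pileup and background were solved from the fold and the −log10 p as a Poisson tail, with a whole pileup accepted within 0.001 in −log10 p. This succeeded at 100% of summits with a −log10 p under 300. Solved pileups were divided by the lowest background rate of the list. The solver and the pairing were tested on simulated data. Named regions were the 3 per private class with the highest −log10 p, at most 3 kb wide and over 1 kb from the other list. Also named were the 3 highest and 3 lowest ratios among pairs with a pileup of at least 20 in both lists, the 3 widest regions of each list, the 3 highest empty-vector pileups and the longest spacing. SMC1 and SMC3 ratios at the pairs, the background ratio by chromosome and the centred medians by chromosome were added after values had been seen. The regions compared and the rules were chosen with earlier results of these data known. Python 3.11.15, NumPy 2.4.6, pandas 2.3.3, SciPy 1.17.1 and matplotlib 3.10.9 were used.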

Additional observations from a re-analysis of the deposited data

How the results depend on the processing

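Of 84 values under alternatives, 37 stayed, 46 moved and 1 reversed, where a value stayed if it lay within its counting interval or, for a count, within 1.5 times. The cause was not tested unless stated. The median log2 ratio of pileup moved most with the scale. Centred on the strongest 10% of pairs, the median log2 ratio of −0.32 became 0.069, with 2415 pairs at least 2 times higher and 957 lower. It was −0.31 with no scaling, −0.31 from the deposited folds, −0.31 over all overlapping pairs (917 pairs at least 2 times higher) and −0.33 without chromosomes 4 and 14. Alternatives chosen after seeing the data gave −0.38 with 7119 pairs lower (pileup corrected for an assumed ceiling) and −0.39 with 66 higher and 2144 lower (a pileup of at least 20 in both).

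With a −log10 q of at least 10, fewer and stronger regions by construction, the shares called in the other line were 77.1% (empty vector) and 85.9% (BORIS). Private regions numbered 10800 and 5963 (ratio 0.552), median widths were 310 and 308 bp, and spacing was 19749 and 21183 bp. The summit distance was 11 bp and the log2 ratio −0.40, with 117 pairs higher and 2577 lower. Equal numbers gave shares of 76.9% and 77.5%, a ratio of 0.971, and an empty-vector width of 236 bp and spacing of 10668 bp. A 50% overlap gave shares of 74.4% and 76.9%, and summits within 200 bp gave 73.9% and 75.8% with a ratio of 0.903. Without chromosomes 4 and 14 the BORIS share was 78.8% and the ratio 0.848. Counting only private regions with that q, against the whole other list, gave 2722 and 2249 (ratio 0.826). Gaps between edges had medians of 10014 and 9947 bp. Very wide regions numbered 49 and 29 from 2 kb, and 4 and 2 from 5 kb.

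The ratio of private regions follows the lengths of the lists compared, so its side of 1 in these settings shows no stability. No paired analysis was possible because each line had 1 RAD21 library, and for the same reason no library was left out. At this depth, a weak region missing from 1 list does not show that RAD21 was absent there.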
